A study of Mus musculus with 2 samples.

Results

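Mir126a, Mir221 and Mir222 are microRNA genes known from blood vessels, and their read counts were examined in small RNA of midbrains from B6NCrl mouse embryos of embryonic day 10.5. The 3 genes were chosen by name, each matched to 1 of the 1973 counted microRNA genes through its Ensembl identifier. The series has 1 group of 2 libraries, labelled biological replicates 1 and 2, made from RNA under 30 nt of 69 and 51 pooled embryos of both sexes. There is no other tissue, stage, genotype or treatment, so each comparison is between genes within a library or between the 2 libraries, and none is between conditions. Whole midbrain was used, with no sorting of cells, so a read cannot be placed in a cell type.

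miR-126 lies in the gene of the secreted endothelial protein Egfl7 and is known as the leading microRNA of endothelial cells, in which it sustains the response to vascular growth factors by repressing inhibitors such as Spred1. Mice without it show leaky vessels and partial loss of embryos. miR-221 and miR-222 are made from neighbouring hairpins of the X chromosome and are known to repress Kit, a receptor tyrosine kinase, and Cdkn1b, an inhibitor of the cell cycle. Vascular smooth muscle, endothelium, erythroid precursors and other dividing cells are known to express them, so they mark the vasculature less strictly than miR-126 does. In the embryonic midbrain, vessels grow into the neural wall from a plexus that surrounds the neural tube.

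The mature sequences show which of the listed arms share a seed, the part that pairs first with a target. They are from RefSeq (GRCm38.p6), which matched all 3 members, and are written 5′ to 3′ with the seed, bases 2 to 8 counted from the 5′ end, in capitals.
mmu-miR-126a-3p: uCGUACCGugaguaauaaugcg
mmu-miR-221-3p: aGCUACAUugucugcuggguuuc
mmu-miR-222-3p: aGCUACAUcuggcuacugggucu
mmu-miR-221-5p: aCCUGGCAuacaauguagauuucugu
miR-221-3p and miR-222-3p were identical over their first 8 bases and so had 1 seed, GCUACAU, while without gaps they matched at 11 of all 23 positions. miR-126a-5p and miR-222-5p were not compared. The seed of miR-126a-3p, CGUACCG, occurred in no other mature microRNA of the table. The seed of miR-221-3p and miR-222-3p occurred in 1 other, miR-1928, whose gene Mir1928 was counted and had 0 reads in both libraries.

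The hairpins are shown with the listed mature arms in capitals, because the counts are per hairpin gene and hold the reads of both arms together. Only the 3p arm is marked in Mir126a and Mir222.
Mir126a hairpin: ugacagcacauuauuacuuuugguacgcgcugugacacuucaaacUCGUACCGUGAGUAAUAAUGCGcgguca
Mir221 hairpin: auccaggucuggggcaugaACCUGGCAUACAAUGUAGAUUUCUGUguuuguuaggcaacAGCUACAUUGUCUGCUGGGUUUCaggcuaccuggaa
Mir222 hairpin: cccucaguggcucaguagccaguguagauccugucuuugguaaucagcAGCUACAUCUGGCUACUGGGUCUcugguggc
In a global alignment the Mir221 and Mir222 hairpins were identical at 60 of 96 columns (62.5%). Mir126a was identical to Mir221 at 45.4% of columns and to Mir222 at 44.4%.

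Mir126a (ENSMUSG00000065540.1, mm10, chr2:26591357-26591429, plus strand, 73 bases) lies inside Egfl7 on the same strand. Of 19 annotated Egfl7 transcripts 9 span it, with Mir126a in an intron of 8 and within the exon of 1 transcript annotated as a retained intron. It also lies in an intron of Gm20532, an overlapping gene on that strand. Mir221 (ENSMUSG00000065422.1, chrX:19146294-19146388, minus strand, 95 bases) and Mir222 (ENSMUSG00000065471.1, chrX:19146893-19146971, minus strand, 79 bases) are separated by 504 bases and lie in no annotated host gene. The nearest other annotated gene is Gm14636, a noncoding transcript on the same strand that ends 10009 bases before Mir222 starts. On the other side, no annotated gene was found within 203 kb of Mir221.

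The seed predicts the letters that a target carries. Opposite bases 2 to 8 of miR-126a-3p the target reads CGGTACG, and opposite those of miR-221-3p and miR-222-3p it reads ATGTAGC. These were searched on the transcript strand in the longest annotated 3′ untranslated region of 21020 protein-coding genes, which vary in length around a median of 961 bases. CGGTACG, which holds the rare dinucleotide CG at both ends, was found in 33 genes (0.157%) and ATGTAGC in 1987 (9.45%). The shorter matches to bases 2 to 7, GGTACG and TGTAGC, lie within the longer ones and were found in 2.88% and 28.2% of genes.

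Stretches of known targets are shown because they carry the letters just described, and no messenger RNA was measured in the study. Capitals mark the match to the seed.
Spred1 (chr2:117178444-117178466, plus strand): atttaactaaatgtaaGGTACGa
Cdkn1b (chr6:134924416-134924438, plus strand): ctctaaaagcattggATGTAGCa
Kit (chr5:75654977-75654999, plus strand): aatgatgggagatatATGTAGCa
Kit (chr5:75656508-75656530, plus strand): tttgtaaatattgaaATGTAGCa
Spred1, an inhibitor of growth factor signalling, held 1 match to bases 2 to 7 of miR-126a-3p and none to bases 2 to 8. Cdkn1b held 1 match to bases 2 to 8 of miR-221-3p and miR-222-3p among 4 matches to bases 2 to 7, and Kit held 2 matches to bases 2 to 8. All 4 printed stretches have A opposite base 1. In Cdkn1c, a related inhibitor of the cell cycle, and in Bbc3, which promotes cell death, 1 match to bases 2 to 8 of miR-221-3p and miR-222-3p was found each. No match to miR-126a-3p was found in the regions searched for Pik3r2 and Vcam1. A match of letters is a description of sequence and was not linked to any measured repression.

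The libraries held 7810040 and 9423767 reads, of which 3297835 (42.2%) and 3682410 (39.1%) were assigned to a microRNA gene. Reads that mapped to several places, 30.9% and 29.5%, are not in the gene counts. Levels are given as CPM, reads per 1000000 gene-assigned reads. Of 15 listed symbols of neural tissue microRNAs, some of them alternative names, 11 were counted, and their summed level was 29468 and 34212 CPM, mostly from the progenitor microRNA Mir92b. Mir219a-2 had 4722 and 5580 CPM and Mir219a-1 1813 and 2312 CPM, while Mir137 had 1424 and 782 CPM and Mir9-3 137 and 66.8 CPM. The binomial test given below called 3 of the 9 genes tested higher in replicate 2 and 3 lower. The shares over all tested genes were 23.1% and 26.6%. All 3 counted copies of the neuronal Mir124a were below 20 CPM, but 9 of the 11 genes hold 20 bases in a row that also occur at a different microRNA locus, and can lose reads. No stretch of 20 bases of the 3 members occurred at another annotated microRNA locus, and the mature sequences listed above for Mir221 and Mir222 matched no other annotated transcript exactly. miR-126a-3p matched 1 other gene, its host Egfl7.

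By reads, Mir126a was among the most abundant microRNA genes of the midbrain and exceeded Mir221 and Mir222 by more than an order of magnitude. It had 87226 reads in replicate 1 and 113343 in replicate 2, which were 2.64% (95% Wilson interval 2.63 to 2.66%) and 3.08% (3.06 to 3.10%) of gene-assigned reads. Its level was 26450 and 30780 CPM, a mean of 28615 ± 3062 (SD, n = 2), and it ranked 7 and 6 among the 1973 genes. The 2 values lie apart by more than their counting intervals, which take each read as independent and cover counting error alone, since the counts are of reads and not of distinct molecules.

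Mir221 had 1380 and 1952 reads, or 418 CPM (Wilson interval 397 to 441) in replicate 1 and 530 CPM (507 to 554) in replicate 2. Its mean was 474 ± 78.9 CPM (SD, n = 2), and it ranked 146 and 139. Mir222 had 800 and 1361 reads, or 243 CPM (226 to 260) and 370 CPM (350 to 390). Its mean was 306 ± 89.8 CPM (SD, n = 2), and it ranked 176 and 151. For each of the 3 genes the replicate 2 library had the higher value, and the lower Mir221 value lay above the higher Mir222 value, so the ranges of these neighbours did not overlap.

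Relative to the mean, the spread between replicates was smallest for Mir126a and largest for Mir222. A trend with level over other genes was not tested. The SD was 10.7% of the mean for Mir126a, 16.6% for Mir221 and 29.3% for Mir222. The 3 members together held 89406 and 116656 reads, which were 2.71% and 3.17% of gene-assigned reads.

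**Figure D1:**
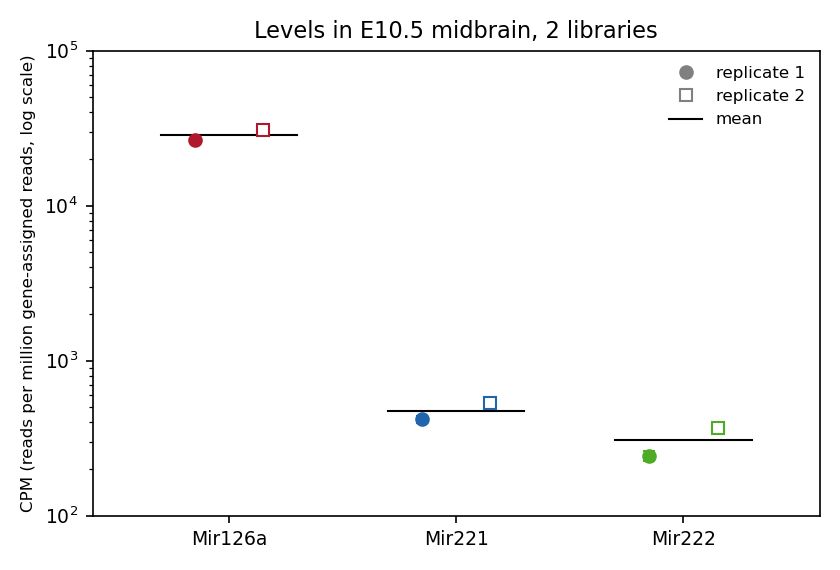
Levels of Mir126a, Mir221 and Mir222 in CPM on a log axis, with filled circles for replicate 1, open squares for replicate 2, 95% Wilson counting intervals where wider than the symbol, and a line at the mean. Mir126a lies at 26450 and 30780 CPM, Mir221 at 418 and 530, and Mir222 at 243 and 370.

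The libraries were made from RNA under 30 nt, shorter than each annotated gene, so the CPM was not divided by length. Divided by the length of the annotated gene, the values were 362 and 422 CPM per base for Mir126a, 4.40 and 5.58 for Mir221 and 3.07 and 4.68 for Mir222. The order of mean levels, Mir126a over Mir221 over Mir222, was the same on both scales. Per base, however, the higher Mir222 value, 4.68, lay above the lower Mir221 value, 4.40, so that the ranges overlapped.

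In the abundance order, Mir126a stood at place 7 by mean CPM. The neighbours above it were Mir20a (31949 ± 799 CPM), of the mir-17-92 polycistron of dividing cells, and Mir100 (29749 ± 6919 CPM). Those below were Mir26b (27055 ± 1917 CPM) and the progenitor microRNA Mir92b (23299 ± 2904 CPM; SD, n = 2 for each). The range of Mir126a overlapped those of Mir100 and Mir26b and lay between those of Mir20a and Mir92b, with no overlap.

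Mir221, at place 143, stood between Mir483 (513 ± 76.9 CPM) and Mir497b (474 ± 40.6 CPM) above and Mir200c (438 ± 151 CPM) and Mir1306 (437 ± 67.2 CPM) below. Mir222, at place 164, stood between Mir667 (311 ± 18.1 CPM) and Mir330 (306 ± 61.2 CPM) above and Mir6236 (296 ± 61.0 CPM) and Mir679 (277 ± 0.135 CPM) below. All 8 of these neighbours had ranges over the 2 libraries that overlapped the range of the member they adjoin. The places of Mir221 and Mir222 are hence not fixed to within a few ranks.

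**Figure D2:**
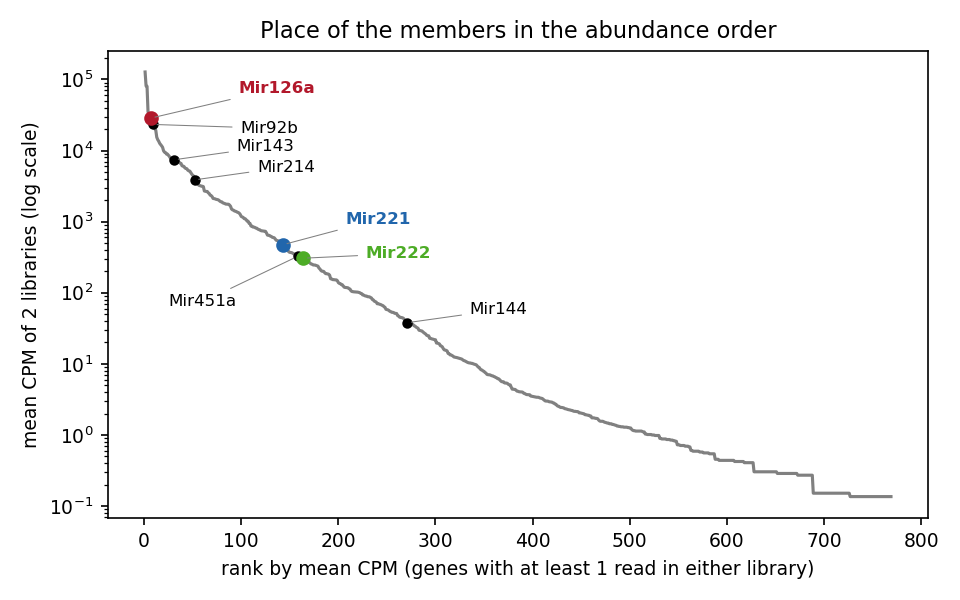
Mean CPM of the 2 libraries (log axis) against rank for all genes with a read, with the members in colour and markers of neural progenitors (Mir92b), mural cells (Mir143), mesenchyme (Mir214) and erythroid cells (Mir451a, Mir144) in black. Mir126a stands beside Mir92b at the top, and Mir221 and Mir222 stand beside Mir451a.

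Within a library the scaling cancels, so ratios between members can be read without it. They are ratios of reads, and how evenly the libraries captured different sequences was not tested. Mir126a had 63.2 reads for each Mir221 read in replicate 1 (95% counting interval 59.9 to 66.7) and 58.1 in replicate 2 (55.5 to 60.8), a mean of 60.6 ± 3.64 (SD, n = 2). These intervals overlapped. Against Mir222 the ratio was 109 (102 to 117) and 83.3 (78.9 to 87.9), intervals that did not overlap.

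Because miR-221-3p and miR-222-3p have the same seed, their genes' reads were also summed. The sum was 2180 and 3313 reads, or 661 and 900 CPM (780 ± 169, SD, n = 2). Mir126a had 40.0 reads (38.3 to 41.8) in replicate 1 and 34.2 (33.0 to 35.4) in replicate 2 for each read of this sum. Reads of both arms are in each of these counts.

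Mir221 had more reads than Mir222 in both libraries, by a ratio of 1.73 in replicate 1 (95% counting interval 1.58 to 1.88) and 1.43 in replicate 2 (1.34 to 1.54). The mean ratio was 1.58 ± 0.206 (SD, n = 2), both intervals lie above 1, and they do not overlap each other. With 2 libraries no permutation test can reach 0.05. Per base of the annotated gene the ratio was 1.43 and 1.19. Among 95 pairs of adjacent microRNA genes on 1 strand within 10 kb, both of mean CPM 10 or more, the median ratio of the more to the less abundant gene was 6.69. By mean CPM the ratio for Mir221 and Mir222 was 1.55, and 78 of the 95 pairs were further apart. Some of these pairs hold a gene that shares 20 bases with another locus, such as Mirlet7c-1 beside Mir99a, with a ratio of 1824. Such a gene can lose reads, which can widen the ratio. Mir221 and Mir222 share no such stretch, so the pairs are not a like background for them.

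**Figure D3:**
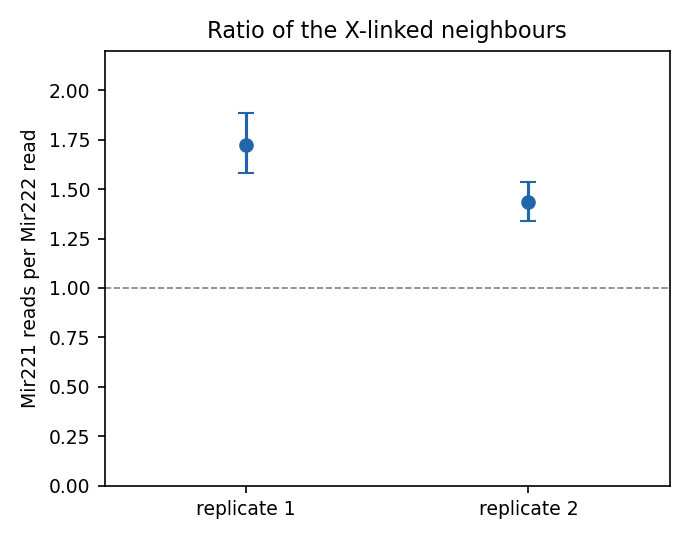
Mir221 reads per Mir222 read in each library, with 95% counting intervals and a dashed line at equal reads. The ratio is 1.73 in replicate 1 and 1.43 in replicate 2, above the line in both.

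The 2 libraries differed at each member by more than counting error. With libraries scaled by TMM (a trimmed mean of log ratios), Mir126a was 1.17-fold higher in replicate 2 (95% counting interval 1.16 to 1.18, log2 ratio 0.22). Mir221 was 1.27-fold higher (1.19 to 1.36, log2 ratio 0.35) and Mir222 1.53-fold higher (1.40 to 1.67, log2 ratio 0.61). An exact two-sided binomial test on the reads, adjusted by Benjamini-Hochberg over all 485 genes with at least 10 reads, called all 3 members higher, with adjusted p of 2.18e-259, 3.27e-11 and 2.45e-21. The same test called 49.7% of all tested genes in either direction and 23.1% higher in replicate 2. A call is thus common here, and the p-values compare the reads of 2 libraries and not conditions.

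How far the members' differences stood out depended on the genes they were set against. Over the 338 genes of mean CPM 10 or more, the log2 ratio had a median of −0.03, an SD of 0.57 and a middle 50% from −0.28 to 0.23. Mir126a lay at percentile 74.3 of these genes, Mir221 at 84.0 and Mir222 at 92.0. Mir126a was thus within the middle 50% of this set, and Mir222 was just beyond 1 SD from its median. The 222 genes of mean CPM 100 or more, nearer the members in level, had a narrower spread. Their log2 ratio had a median of −0.04, an SD of 0.41 and a middle 50% from −0.27 to 0.19. All 3 members lay above that middle 50%, Mir126a at 0.22, Mir221 at 0.35 and Mir222 at 0.61. Mir221 and Mir222 differed from each other by 0.27 in log2 ratio, against a median difference of 0.18 over the 95 adjacent pairs, and 37 pairs differed by more.

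**Figure D4:**
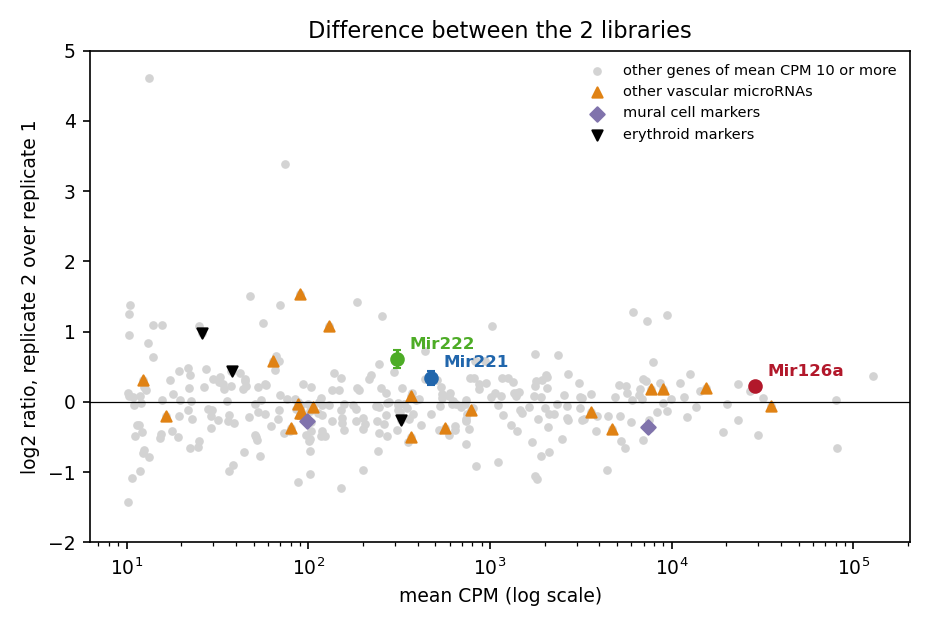
Log2 ratio of replicate 2 over replicate 1 against mean CPM (log axis) for genes of mean CPM 10 or more, with 95% counting intervals on the members. All 3 members lie above 0, at 0.22, 0.35 and 0.61, while other vascular microRNAs lie on both sides.

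Genes of the nearest log2 ratio were taken from the 107 genes of mean CPM 1000 or more, which over 2 libraries is a likeness in 1 number only. For Mir126a they were Mir1983, Mir337 and Mir674, with log2 ratios of 0.23, 0.23 and 0.20. For Mir221 they were Mir540, Mir421 and Mir219a-1, at 0.34, 0.34 and 0.36. For Mir222 they were Mir363, Mir183 and Mir92-2, at 0.57, 0.66 and 0.68.

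Other microRNAs known from vessels did not move in 1 direction. Of 22 listed, 20 were counted and tested; 6 were called higher in replicate 2, 7 lower and 7 were not called, with a median log2 ratio of −0.07 against −0.02 over all 485 tested genes. Of all tested genes 23.1% were called higher and 26.6% lower. Their summed level was 77924 and 78700 CPM. Mir126b and Mir24-1 of the list were matched to no counted gene, and Mir92a-1 was counted under its RefSeq symbol Mir92-1.

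The highest of the list was Mir130a, known from angiogenic endothelium, at 36038 and 34388 CPM, above Mir126a in both libraries, and was called lower in replicate 2 (log2 ratio −0.06). Mir322 had 14354 and 16447 CPM (log2 ratio 0.20) and Mir296 7178 and 8112 CPM (0.18), and both were called higher in replicate 2, as Mir126a was. Mir92-1 of the mir-17-92 polycistron, known to restrain vessel growth, had 8358 and 9508 CPM (log2 ratio 0.19) and was also called higher. Mir10a (83.4 and 176 CPM, log2 ratio 1.08) and Mir10b (46.1 and 134 CPM, 1.54), which lie in Hox clusters, and Mir31 (50.9 and 76.3 CPM, 0.59) were the others called higher.

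Mir23b and Mir27b, clustered microRNAs known from endothelium, were lower in replicate 2. Mir23b had 5289 and 4054 CPM (log2 ratio −0.38) and Mir27b 642 and 497 CPM (−0.36). Mir24-2 (90.7 and 69.8 CPM, −0.37), Mir23a (3767 and 3411 CPM, −0.14), Mir210 of the hypoxia response (821 and 753 CPM, −0.12) and Mir217 (429 and 304 CPM, −0.49) were also called lower. Among the genes not called, Mir503 had 359 and 378 CPM, and Mir34a had 109 and 103 CPM. The other 5, which include Mir132 and both Mir218 genes, had means below 100 CPM. In all, 8 of the 20 share sequence with another locus.

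Markers of mural cells, the pericytes and smooth muscle around vessels, were lower in replicate 2 while the members were higher. Mir143 had 8342 and 6509 CPM (log2 ratio −0.35) and Mir145a 107 and 88.5 CPM (−0.27), and both were called lower. The same call was given to 26.6% of all tested genes. Mir145b had 0 reads in both libraries. The summed level was 8449 and 6598 CPM. Mir126a had 3.17 reads for each Mir143 read in replicate 1 and 4.73 in replicate 2. In bulk tissue, fewer cells of a type and less RNA per cell cannot be told apart, here and for every other marker.

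The 5 mesenchymal markers were all called lower in replicate 2 (median log2 ratio −0.32, summed level 8238 and 7014 CPM), against 26.6% of all tested genes. The 3 Mir199 genes among them share 20 bases with another locus and can lose reads. Among them Mir214 had 4136 and 3606 CPM, Mir140 3562 and 2995 CPM and Mir199b 466 and 371 CPM. Their part, and that of the mural markers, in the difference at the members was not tested.

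Red blood cell microRNAs were far below Mir126a, and 1 of the 3 counted, Mir451a, was near Mir221 and Mir222 in level. Mir451a, the leading erythroid microRNA, had 354 and 295 CPM and was lower in replicate 2 (log2 ratio −0.26). Its neighbour Mir144 had 32.1 and 43.7 CPM (0.45) and Mir486 17.6 and 34.8 CPM (0.98), both called higher. All 3 were thus called, against 49.7% of all tested genes in either direction. The list's median log2 ratio of 0.45 and its summed level, 404 and 374 CPM, thus differ in direction. Mir126a had 74.7 and 104 reads for each Mir451a read, Mir221 1.18 and 1.80, and Mir222 0.686 and 1.25. Mir221 was above Mir451a in both libraries, and Mir222 was below it in replicate 1 and above it in replicate 2.

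Of the leukocyte markers, 5 of 7 listed symbols were counted and tested, and the 1 called was Mir142b, higher in replicate 2 at 682 and 865 CPM. Over all tested genes the share called in either direction was 49.7%. All reads of Mir142b lay in the third count column, which appears to hold reads of the strand opposite to the gene. Its level and its call are thus of those reads. Mir142, also listed, was matched to no counted gene. Mir223 had 314 and 311 CPM and Mir155 274 and 270 CPM. The summed level of the list was 1312 and 1482 CPM, and 629 and 616 CPM in the second column alone. Whether reads of blood cells contribute to Mir221 and Mir222 was not tested.

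**Figure D5:**
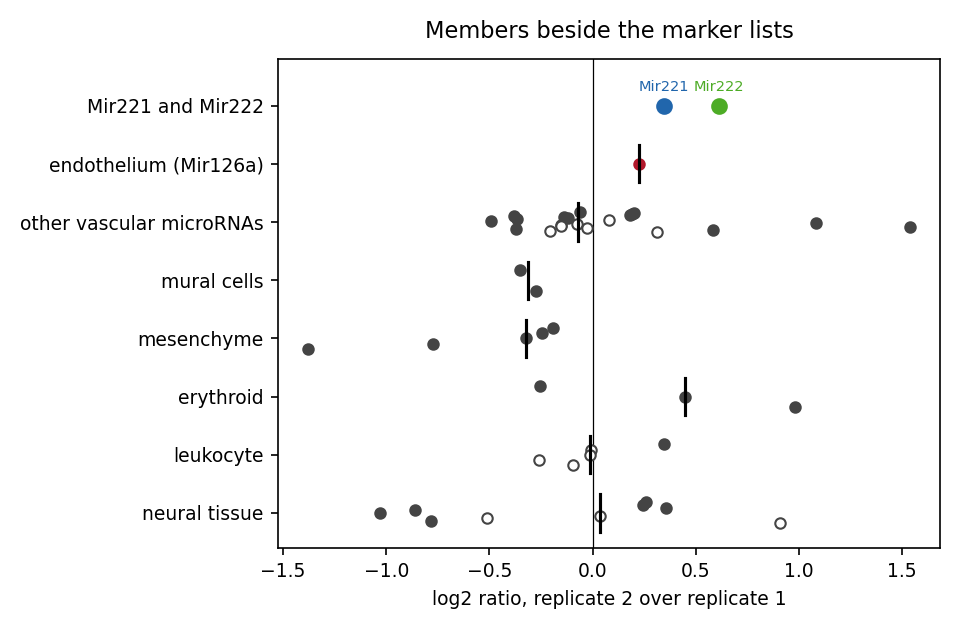
Log2 ratio of replicate 2 over replicate 1 for Mir221, Mir222, Mir126a and the tested genes of each marker list, filled where called by the binomial test and open where not, with a bar at each list's median. The mural and mesenchymal genes lie below 0, the members above 0, and the other lists on both sides.

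The strand of the reads bears on Mir126a, because RefSeq and GENCODE place a second microRNA gene, Mir126b (chr2:26591363-26591420, minus strand), within it on the other strand. Its mature sequences are shown with the seeds in capitals.
mmu-miR-126b-5p: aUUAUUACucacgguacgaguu
mmu-miR-126b-3p: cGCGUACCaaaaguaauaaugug
A run of 19 of the 22 bases of the reverse complement of miR-126a-3p occurred in miR-126b-5p, and no seed was common to the 3 sequences. In the column taken as the gene's strand Mir126a had 87213 and 113332 reads, and in the opposite column 13 and 11. Mir221 had 0 opposite reads in both libraries and Mir222 had 1 and 0. Nearly all reads of the members thus came from 1 strand of each locus.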

How the data were processed

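Small RNA libraries of 2 pools of embryonic midbrain were compared. Raw read counts per microRNA gene were deposited by the authors, 1 file per library, made by aligning reads to mm10 and counting on GENCODE M4, per the labels and the text files beside them. Which aligner and trimming were used is not given in the sources used here. The first of 3 unnamed count columns, the sum of the others, was used. The 4 rows that name no gene, 57.8% and 60.9% of reads, were left out.

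Identifiers were matched without version to GENCODE M21 (1894 of 1973 matched), and listed symbols without a match were looked up among RefSeq synonyms (GRCm38.p6). CPM, SD over 2 replicates, Wilson and exact conditional counting intervals at 95%, and log2 ratios with 0.5 added reads and TMM sizes (edgeR 4.0.16, R 4.3.3) were computed. The exact binomial test per gene (at least 10 reads in sum, Benjamini-Hochberg at 0.05, scipy 1.17.1) recovered 62.0%, 77.0% and 91.0% of 200 genes changed 1.5-, 2- and 4-fold in simulated counts with Poisson error only (493, 484 and 488 genes tested). It also called 6, 3 and 11 unchanged genes. The simulated counts hold no spread between replicates beyond counting error, so they cannot show how reliable calls are in the real libraries.

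The members and lists were chosen with earlier results of these data known. Named genes are the members, the 2 genes above and below each by mean CPM, the 3 of nearest log2 ratio at mean CPM 1000 or more, seed mates, and list members of mean CPM 100 or more or that define a cell type. Other genes of the lists, Spred1 and the other targets were named as background. Alternatives were DESeq2 1.42.0 size factors, total counts, other filters and added reads, thinning, the second column, fewer genes in the denominator, length and leaving out each replicate.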

Additional observations from a re-analysis of the deposited data

How the results depend on the processing

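Of 57 alternative values, 54 stayed within the replicate spread, on their side of the threshold or within 1.5 times a count. Mir126a had a mean of 32847 CPM without the most abundant gene in the denominator, and per base of the annotated gene the ratio of Mir221 to Mir222 was 1.31 and that of Mir126a to Mir221 was 78.9. By construction these change the denominator or the length. Some of the 54 likewise could not have come out otherwise. With 2 replicates, leaving out either always stays within the spread, and the added reads do not enter the binomial test. Over 6 alternatives the log2 ratio of replicate 2 over 1 was 0.22 to 0.26 for Mir126a, 0.34 to 0.38 for Mir221 and 0.61 to 0.65 for Mir222, and the adjusted p of the binomial test was at most 3.06e-244, 7.81e-11 and 1.43e-20. The number of genes called was 227 to 235 with other filters, DESeq2 size factors, thinning or the second column and 240 with total counts, against 241. No paired analysis was possible because the series has 1 group. With 2 pools and 1 library of each, differences between pools and between library preparations cannot be told apart, and arms of a hairpin were not separated.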
